A study of Homo sapiens with 6 samples.

Results

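Transcripts of 35 genes of mitochondrial and peroxisomal fatty acid oxidation were examined by RNA-seq in Jurkat, a long-established human cell line that stems from a T cell leukaemia. The genes were taken as a list by symbol, not by their values, and all 35 were found among the 39012 gene rows of the deposited table. One group was made of 3 libraries from cells with an empty vector (EV). The other was made of 3 libraries from cells that stably overexpressed SCML4, a member of the Scm-like Polycomb family. The cells of both groups were grown in 10% fetal bovine serum and were treated for 6 h with ionomycin (1 µM) and PMA (100 ng/ml), a combination that activates T cells without their receptor. No library from unstimulated cells was analysed here, so every value describes stimulated cells. The sources used here do not say whether the lines are clones, which promoter drove SCML4, or whether replicate libraries were made from different cultures. The p-values therefore reflect the spread between libraries alone, and that spread may be technical. The labels call the line an ouabain-induced leukaemia line, and they list no ouabain among the treatments.

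Long-chain fatty acids enter mitochondria as carnitine esters, made by the CPT1 enzymes of the outer membrane and turned back into acyl-CoA by CPT2 at the inner membrane. Inside, each round of beta-oxidation shortens the chain through an acyl-CoA dehydrogenase, a hydratase, a hydroxyacyl-CoA dehydrogenase and a thiolase, and the electrons taken by the dehydrogenases pass to the electron transfer flavoprotein. Peroxisomes run a related pathway for very long and branched chains. In T cells the pathway is known mainly from memory and regulatory cells, whereas activated effector cells rely more on glycolysis.

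Promoter sequences were taken from RefSeq (GRCh38.p14), which had an entry for 27 of the 35 genes, and the 250 bases before each start are considered. They are shown for genes whose levels are set against each other in the results. The windows are given 5′ to 3′ on the strand of the gene, in lower case, with matches to the motifs named here in capitals. HADHA and HADHB encode the partner subunits of the trifunctional protein and are transcribed away from each other. Their starts lie 307 bases apart, and their windows share 194 bases. The HADHB window lies at chr2:26244689-26244938 on the plus strand and holds no match.
HADHB: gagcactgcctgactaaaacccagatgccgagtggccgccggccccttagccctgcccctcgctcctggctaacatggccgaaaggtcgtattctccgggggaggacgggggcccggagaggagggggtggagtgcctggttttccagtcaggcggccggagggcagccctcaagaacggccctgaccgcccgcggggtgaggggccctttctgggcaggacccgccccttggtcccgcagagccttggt
The regulators are shown because PPARA and PPARD had reads in every library and PPARGC1A in none. The PPARA window at chr22:46150276-46150525 (plus strand) and the PPARD window at chr6:35342308-35342557 (plus strand) each hold a CCAAT box, which in PPARD lies on the other strand and reads ATTGG. A further PPARA window holds an NRF1 motif and is not shown.
PPARA: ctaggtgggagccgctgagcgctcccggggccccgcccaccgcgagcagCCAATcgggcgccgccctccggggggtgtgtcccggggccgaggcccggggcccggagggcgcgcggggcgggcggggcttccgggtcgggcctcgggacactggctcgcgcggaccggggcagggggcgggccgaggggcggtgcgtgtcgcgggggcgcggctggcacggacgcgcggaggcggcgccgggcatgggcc
PPARD: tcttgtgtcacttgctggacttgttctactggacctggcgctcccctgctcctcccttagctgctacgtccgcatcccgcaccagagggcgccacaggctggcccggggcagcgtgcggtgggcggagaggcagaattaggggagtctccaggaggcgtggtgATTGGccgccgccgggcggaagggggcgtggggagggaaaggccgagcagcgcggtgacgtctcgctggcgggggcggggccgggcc
A further window of PPARGC1A, at chr4:23881102-23881351 (minus strand) with a GC content of 44%, holds no match and is not shown. The window shown belongs to a distant start of the gene, at chr4:24472906-24473155 (minus strand), has a GC content of 70.8% and holds an E-box. Which start would be used in these cells was not tested.
PPARGC1A: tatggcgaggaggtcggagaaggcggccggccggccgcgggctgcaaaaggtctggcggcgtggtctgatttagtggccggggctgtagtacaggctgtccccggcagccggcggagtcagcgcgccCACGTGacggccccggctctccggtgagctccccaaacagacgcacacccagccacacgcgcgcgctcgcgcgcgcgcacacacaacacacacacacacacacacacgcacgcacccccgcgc
Over the 37 windows of the 27 genes, the median GC content was 66%, against 58% over the 35116 windows of all genes, and the median ratio of observed to expected CpG was 0.81 against 0.56. A CCAAT box, CCAAT on either strand, was in 27% of the members' windows and 32% of all windows. The NRF1 motif, GCGCA followed by its reverse complement, was in 2.7%, which is 1 window, that of PPARA, and in 1.03% of all windows. The E-box CACGTG was in 5.41%, which is 2 windows, and in 6.34% of all windows. Neither the ERR motif TCAAGGTCA, in 0.319% of all windows, nor the PPAR direct repeat, AGGTCA and AGGTCA with 1 base between them, in 0.0171%, was in a window of these genes. Both strands were searched for each motif. A match describes these letters only, and no binding was measured.

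The libraries held 8953671 to 10336597 reads, recovered from the deposited values, and the unit of level is CPM (reads per 1000000 of the library). SCML4 itself, the check of the labels, had 7, 2 and 1 reads in the EV libraries and 570, 657 and 506 in those labelled SCML4. Of 14 T cell markers, 13 were present in every library, with CD3E at 583 to 712 CPM and RAG1, the lowest, at 62.6 to 193, while LMO2 had 1 read over all libraries. Their summed level was 3714 to 3873 CPM in EV and 3911 to 4059 in SCML4, and 5 of the 13 markers tested did not overlap between the groups, all 5 higher in SCML4, where 6.29% of all genes tested were higher without overlap. The B cell list held 36.9 to 44.1 CPM in EV and 49.0 to 51.9 in SCML4, nearly all from CD79A and BLK, with PAX5 and CD22 at 0. The myeloid list held at most 0.934 CPM (LYZ and FCGR1A at 0) and the epithelial list at most 1.68 (EPCAM, KRT18, KRT19 and CDH1 at 0). The fibroblast list held 31.4 to 45.3 CPM, mostly from THY1, with COL1A2, COL3A1, DCN and LUM at 0. The part of these marker levels in the results that follow was not tested. The library of EV replicate 1 was unlike the rest, at -30.3 on the leading principal component (36.5% of the variance) where the other 5 lay between 2.29 and 8.12. Over 13347 genes, its deviation from the mean of all 6 libraries had a Spearman correlation of -0.52 with GC content, against 0.05 to 0.30 in the other libraries. These deviations sum to 0 in each gene, so the values of the other libraries are in part set by that of EV replicate 1. Differences are therefore also given without EV replicate 1.

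No fatty acid oxidation gene differed between SCML4 and EV at the threshold used, an adjusted p under 0.05 in limma-trend on log2(CPM + 1). Of the 35 genes, 31 had a mean of at least 10 reads and were tested, and 0 were called. In the same test 1 of 14160 genes was called, SCML4 itself, which is 0.00706%. At an unadjusted p under 0.05 there were 0 of the 31, against 5.27% of all genes tested. Of the 31, 15 were higher in SCML4 and 16 lower, with a median log2 difference of -0.01, against 0.01 over all genes. The differences ran from -0.34 in ECI1 to 0.20 in ACAA2, with adjusted p from 0.866 to 0.996. The 3 libraries of one group all lay above those of the other in 2 of the 31, ACADVL and ACAA2, both higher in SCML4. Among all genes tested the groups did not overlap in 11.6%, with SCML4 higher in 6.29% and lower in 5.36%. In bulk RNA, fewer cells with a transcript and less of it per cell cannot be told apart.

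The precision of these differences varied with the number of reads. The 95% interval, which comes from the spread between libraries, lay within 0.5 of 0 on the log2 scale for 27 of the 31 genes and within 1 for all 31. Its median width on either side was 0.26. Over the 31 genes the intervals reached from -0.80 to 0.74, that is from 0.58 to 1.66 times the EV level on the CPM + 1 scale. The widest belonged to genes of few reads, CRAT, ECI1, CPT1B and ACAD11. A p that misses the threshold does not show that these levels were equal.

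**Figure D1:**
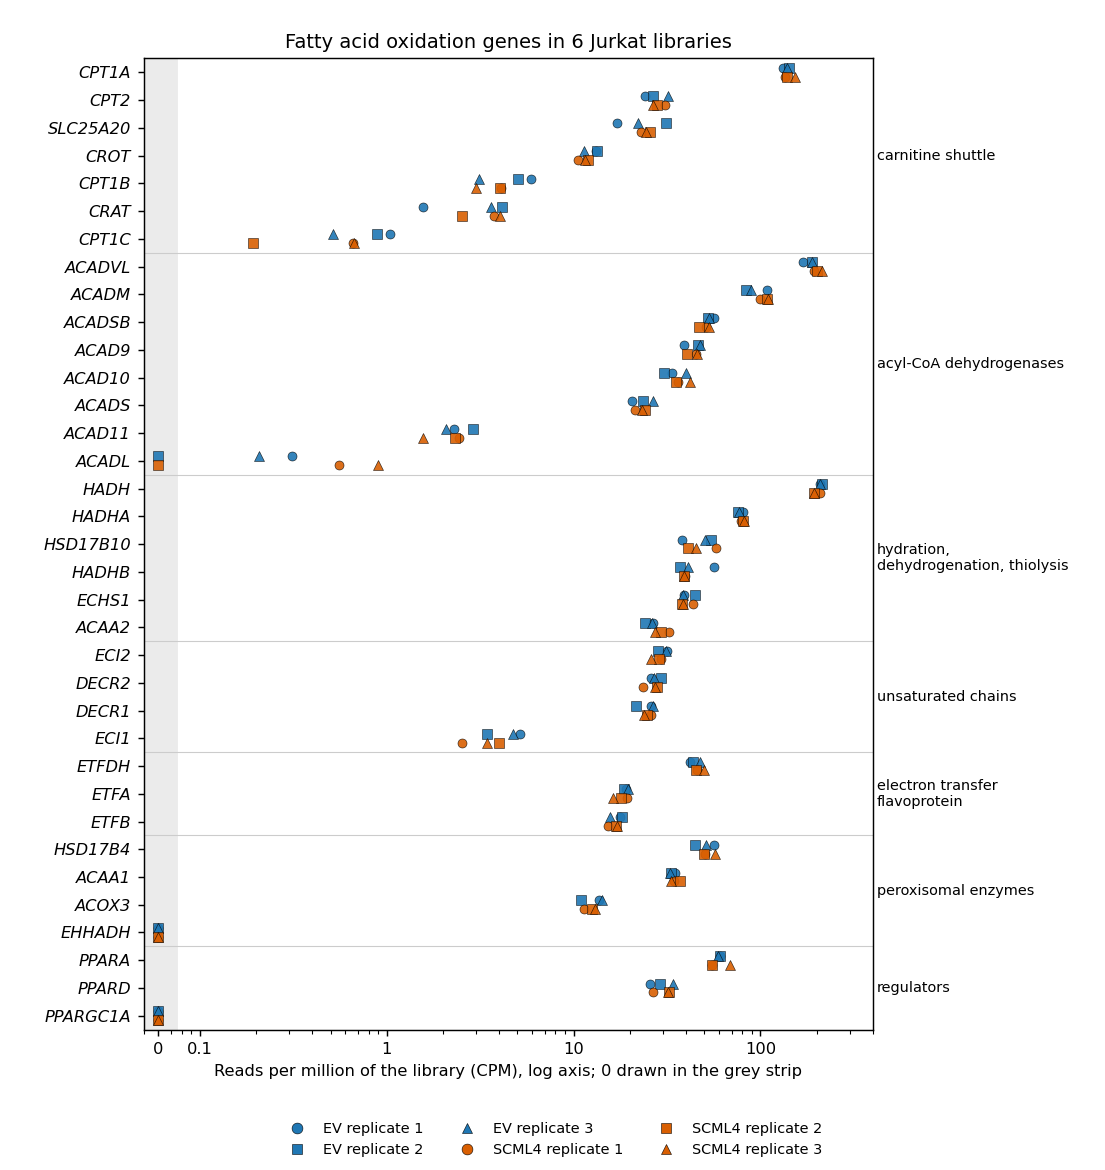
Level of each of the 35 genes in each of the 6 libraries, in CPM on a log axis, by role in the pathway, with EV in blue and SCML4 in orange and replicates by symbol. The blue and orange symbols of most genes overlap, and EHHADH and PPARGC1A lie at 0 in all 6 libraries.

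**Figure D2:**
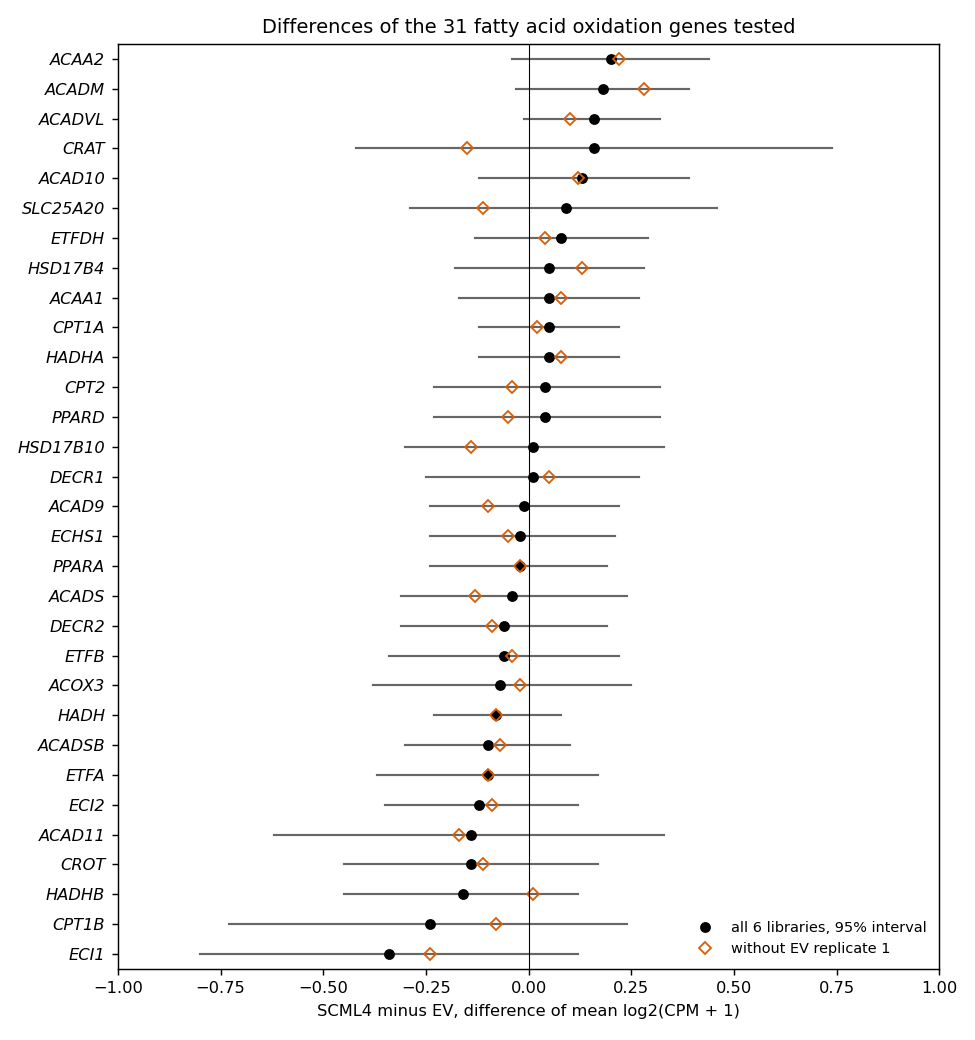
SCML4 minus EV as the difference of mean log2(CPM + 1) for the 31 genes tested, with 95% intervals (3 libraries per group) and, as open diamonds, the difference without EV replicate 1. All 31 intervals cross 0, and the diamonds of CRAT, SLC25A20, HSD17B10, CPT2, PPARD and HADHB lie on the other side of 0 from their points.

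Together the 35 genes took 1431, 1440 and 1463 CPM in EV and 1459, 1444 and 1504 CPM in SCML4, which is 0.143% to 0.150% of the reads. The groups overlapped in this sum. The sum counts reads, so long transcripts weigh more in it. HADH, ACADVL, CPT1A, ACADM and HADHA made up 49.1% of it. The sum over the 8 acyl-CoA dehydrogenases was 429, 427 and 448 CPM in EV and 451, 458 and 488 in SCML4, the only one of the 7 roles in which the groups did not overlap. Of the 7 dehydrogenases tested, 3 were higher and 4 lower in SCML4, with a median log2 difference of -0.01. Among all genes tested, taken singly, the groups did not overlap in 11.6%. No test was made of these sums.

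In the carnitine shuttle, CPT1A, the liver-type and most widely expressed carnitine palmitoyltransferase of the outer membrane, was the main form. Its level was 132, 142 and 138 CPM in EV and 135, 139 and 153 CPM in SCML4. The groups overlapped, at 137 ± 5.12 and 142 ± 9.67 CPM (mean ± SD, n = 3), with a log2 difference of 0.05 (SE 0.08, 95% interval -0.12 to 0.22). CPT1A supplied 95% to 97.7% of the reads of the 3 CPT1 genes. CPT1B, the muscle-type form, was far lower, at 5.92, 5.02 and 3.10 CPM in EV and 4.08, 4.06 and 3.02 CPM in SCML4. EV replicate 1 was its highest library, and the log2 difference of -0.24 (interval -0.73 to 0.24) became -0.08 without that library. Of its exonic length, 80.1% is shared with the readthrough gene CHKB-CPT1B, which had 0.415 to 2.68 CPM, so part of its reads could have been assigned to either. CPT1C, the form of the endoplasmic reticulum in neurons, had 10, 8 and 5 reads in EV against 6, 2 and 6 in SCML4, under the filter of the test.

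The remaining shuttle genes also overlapped between the groups. CPT2, the inner membrane transferase, stood at 27.6 ± 4.12 CPM in EV and at 28.3 ± 2.10 in SCML4. SLC25A20, the carnitine-acylcarnitine carrier of the inner membrane, had 17.1, 31.3 and 22.2 CPM in EV and 22.9, 25.6 and 24.5 in SCML4. The lowest and the highest of its libraries were thus both EV, and the sign of its difference, 0.09, turned to -0.11 without EV replicate 1. CRAT, which transfers short acyl groups to and from carnitine, had 15, 37 and 35 reads in EV against 34, 26 and 36 in SCML4, with EV replicate 1 lowest. Its difference was 0.16 with all libraries and -0.15 without EV replicate 1, inside an interval of -0.42 to 0.74. CROT, the peroxisomal octanoyltransferase, stood at 12.6 ± 1.08 CPM in EV and at 11.3 ± 0.671 in SCML4, a difference of -0.14.

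Among the acyl-CoA dehydrogenases, which differ in the chain length they take, ACADVL had the highest level of this class and the smallest p of the 31 genes tested. This very long-chain enzyme stood at 169, 188 and 189 CPM in EV and 194, 201 and 213 CPM in SCML4. All SCML4 libraries lay above all EV libraries, at 203 ± 9.21 against 182 ± 11.5 CPM, although EV replicates 2 and 3 and SCML4 replicate 1 were close. The log2 difference was 0.16 (SE 0.08, interval -0.01 to 0.32), at an unadjusted p of 0.0653 (limma-trend, adjusted p 0.866). Without EV replicate 1, the lowest library, it was 0.10.

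ACADM, the medium-chain enzyme, stood at 108, 84.0 and 89.3 CPM in EV and 99.4, 108 and 110 CPM in SCML4. EV replicates 2 and 3 were the lowest libraries, and EV replicate 1 was level with the upper SCML4 libraries, so the groups overlapped. The log2 difference was 0.18 with an interval of -0.03 to 0.39 and an adjusted p of 0.866 (limma-trend). Its p depended on the handling of EV replicate 1. Without that library the difference was 0.28, with an unadjusted p of 0.00145 and an adjusted p of 0.290. The unadjusted p was 0.00292 (adjusted 0.309) in limma-voom with library weights, which weighted EV replicate 1 at 0.313 against 0.81 to 1.8 for the others. After correction for GC content and length the unadjusted p was 0.0145 (adjusted 0.793). ACADM was thus not called in any fit that was run.

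ACADSB, the dehydrogenase of short branched chains, stood at 56.5, 52.5 and 52.9 CPM in EV and 51.2, 47.0 and 52.9 CPM in SCML4. Its difference of -0.10 (interval -0.30 to 0.10) was within the overlap of the groups. ACAD10, whose natural substrate is less well defined, stood at 33.5, 30.4 and 39.9 CPM in EV and 36.4, 35.5 and 41.9 CPM in SCML4. Replicate 3 was the highest of each group, and the difference was 0.13 (interval -0.12 to 0.39). ACAD9, a dehydrogenase that also serves the assembly of respiratory complex I, was level at 44.1 ± 4.65 CPM in EV against 43.6 ± 2.93 in SCML4. ACADS, the short-chain enzyme, stood at 23.5 ± 3.10 and 22.8 ± 1.39 CPM. ACAD11 was low, at 2.42 ± 0.432 and 2.10 ± 0.471 CPM, a difference of -0.14 (interval -0.62 to 0.33). ACADL, the long-chain enzyme, had 3, 0 and 2 reads in EV against 5, 0 and 8 in SCML4, against a floor of 3 reads that a count of 0 allows.

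For the later steps of the cycle, HADH, the hydroxyacyl-CoA dehydrogenase of medium and short chains, was the most abundant transcript of the 35 in reads. It stood at 208, 213 and 208 CPM in EV and 209, 194 and 193 CPM in SCML4. The EV libraries were close together, and SCML4 replicate 1 lay among them. The log2 difference was -0.08, with an interval of -0.23 to 0.08 that is among the narrowest of the 31. ECHS1, the short-chain enoyl-CoA hydratase, was level at 40.7 ± 3.27 and 40.2 ± 3.11 CPM. HSD17B10, a hydroxyacyl-CoA dehydrogenase that is also a subunit of mitochondrial RNase P, stood at 47.5 ± 8.45 and 48.0 ± 8.95 CPM, with the difference of 0.01 turning to -0.14 without EV replicate 1.

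ACAA2, the mitochondrial thiolase, had the highest difference of the 31. Its levels were 26.6, 24.1 and 26.4 CPM in EV and 32.3, 29.4 and 27.4 CPM in SCML4. The groups did not overlap, but the gap between EV replicate 1 and SCML4 replicate 3 was small. The log2 difference was 0.20 (SE 0.11, interval -0.04 to 0.44; limma-trend, adjusted p = 0.866). Leaving out each library in turn gave 0.14 to 0.25. With library weights the unadjusted p was 0.0424 and the adjusted p 0.573 (limma-voom).

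The trifunctional protein, which carries out the last 3 steps on long chains, is built from HADHA and HADHB. HADHA, with the hydratase and dehydrogenase activities, stood at 80.6, 75.6 and 76.6 CPM in EV and 78.9, 80.6 and 81.5 CPM in SCML4, a difference of 0.05. HADHB, with the thiolase activity, stood at 56.2, 36.9 and 40.7 CPM in EV and 39.3, 38.9 and 39.0 CPM in SCML4. The SCML4 libraries were nearly equal in HADHB, and EV replicate 1 alone was high. Its difference of -0.16 (interval -0.45 to 0.12) became 0.01 without that library. In EV replicate 1, HADHA deviated by 0.03 and HADHB by 0.52 from the mean of the other libraries on the log2 scale. The part of the shared promoter region in these levels was not tested.

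Both trifunctional genes have pseudogenes to which reads were also assigned. The transcripts of HADHAP1 and HADHAP2, processed pseudogenes of HADHA, were aligned to HADHA (GENCODE 29). The alignments span 2299 and 2289 positions, gaps included, at 91.3% and 93.6% identity. HADHA held 62.0% to 67.6% of the reads of the 3, and HADHB 58.7% to 66.2% of those of HADHB and its pseudogene HADHBP1, with overlapping groups in both shares. Reads can be split between such copies by the counting, so the levels of HADHA and HADHB are uncertain to that extent. The summed reads of HADHA and its copies gave 122 ± 6.17 CPM in EV and 125 ± 3.60 in SCML4, a difference of 0.03. For HADHB and its copy the sum was 72 ± 12.8 and 61.5 ± 2.31 CPM, a difference of -0.21 in overlapping groups. HADHAP1 itself had 12.5, 13 and 12.4 CPM in EV and 15.7, 16.2 and 15.4 CPM in SCML4, without overlap, with a difference of 0.30 (unadjusted p = 0.0389, adjusted p = 0.866, limma-trend). HADHBP1 lay in the other direction, at 27.4 ± 3.14 CPM in EV against 22.4 ± 2.30 in SCML4 in overlapping groups, with a difference of -0.28 (unadjusted p = 0.0475, adjusted p = 0.866, limma-trend). HADHAP2 was also lower in mean in SCML4, at 32.1 ± 3.86 CPM in EV against 28.7 ± 4.58 in SCML4.

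**Figure D3:**
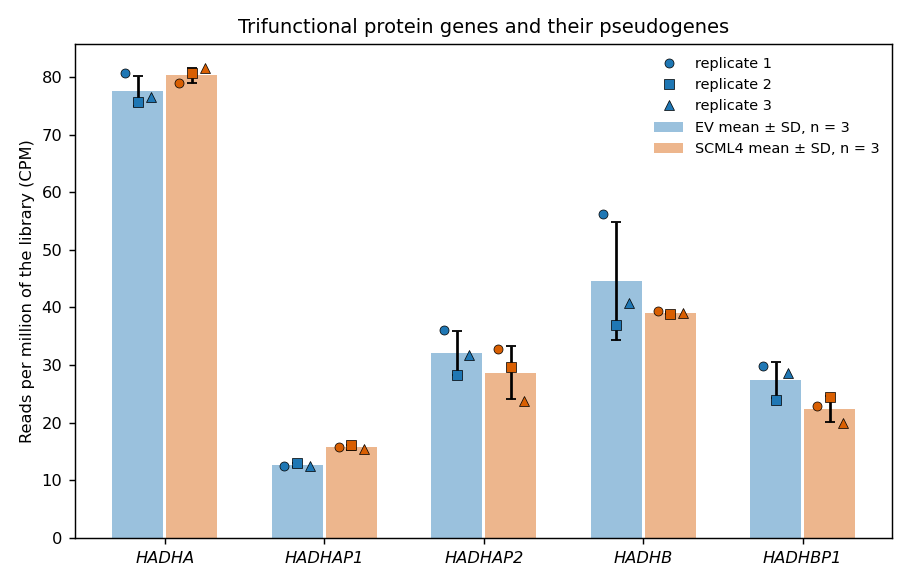
CPM of HADHA, HADHB and their pseudogenes, with bars for the mean, error bars for the SD (n = 3) and symbols for the libraries. HADHB in EV replicate 1 lies at 56.2 and the other 5 libraries between 36.9 and 40.7, while HADHA lies between 75.6 and 81.5 in all 6.

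Unsaturated chains need isomerases and a reductase before they can enter the cycle. ECI1, an enoyl-CoA isomerase of mitochondria, had the lowest difference of the 31, from 50, 31 and 46 reads in EV against 23, 41 and 31 in SCML4. Its levels were 5.19, 3.46 and 4.75 CPM in EV and 2.54, 3.97 and 3.46 CPM in SCML4, with overlapping groups. The log2 difference was -0.34 (SE 0.21, interval -0.80 to 0.12), and it was -0.24 without EV replicate 1. ECI2, the isomerase found in both mitochondria and peroxisomes, was higher, at 31.7, 28.4 and 31.4 CPM in EV and 29.3, 28.7 and 26.0 CPM in SCML4. Its difference was -0.12 (interval -0.35 to 0.12), and EV replicate 2 lay below SCML4 replicates 1 and 2. The dienoyl-CoA reductases were level, DECR1 of mitochondria at 24.7 ± 2.78 and 24.8 ± 1.12 CPM and DECR2 of peroxisomes at 27.4 ± 1.74 and 26.3 ± 2.36 CPM in EV and SCML4.

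The electron transfer flavoprotein takes electrons from the acyl-CoA dehydrogenases, and its oxidoreductase ETFDH passes them to ubiquinone. ETFDH stood at 42.0, 43.7 and 47.3 CPM in EV and 45.5, 45.3 and 50 CPM in SCML4, with EV replicate 3 inside the SCML4 range. Its difference was 0.08 (interval -0.13 to 0.29), and 14.9% of its exonic length lies opposite exons of PPID. The subunit genes ETFA, at 19.1 ± 0.396 and 17.8 ± 1.50 CPM, and ETFB, at 17.1 ± 1.34 and 16.4 ± 1.01 CPM, had differences of -0.10 and -0.06. The 3 genes of the flavoprotein were thus not shifted in one direction.

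Of the peroxisomal enzymes, HSD17B4, the bifunctional enzyme that hydrates and dehydrogenates branched and very long chains, was the most abundant in reads. It stood at 56.3, 44.6 and 50.9 CPM in EV and 50.4, 49.6 and 56.8 CPM in SCML4, a difference of 0.05 in overlapping groups. EHHADH, the other bifunctional enzyme of peroxisomes, had 0 reads in all 6 libraries, which allows up to 0.29 to 0.335 CPM by library. ACAA1, the peroxisomal thiolase, stood at 33.7 ± 1.16 and 34.9 ± 2.03 CPM, and 22.2% of its exonic length lies opposite exons of DLEC1, which had 1.14 to 1.93 CPM. ACOX3, an oxidase of branched chains, stood at 13 ± 1.68 and 12.3 ± 0.832 CPM. Of the bifunctional enzymes of peroxisomes, HSD17B4 was thus read in every library, while no EHHADH transcript was detectable in either group.

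The regulators of the pathway include the nuclear receptors PPARA and PPARD, which activate many of its genes when bound by fatty acids, and their coactivator PPARGC1A. PPARA stood at 60.6, 60.9 and 59.3 CPM in EV and 55.3, 55.0 and 68.6 CPM in SCML4. The EV libraries lay within the SCML4 range, and the log2 difference was -0.02 (interval -0.24 to 0.19). PPARD stood at 25.7, 29 and 33.9 CPM in EV and 26.6, 32.4 and 32.1 CPM in SCML4, a difference of 0.04 (interval -0.23 to 0.32). PPARGC1A had 0 reads in all 6 libraries. The receptors PPARA and PPARD were thus both read while that coactivator was not detectable at this depth, in EV and SCML4 alike.

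Between genes, levels were compared per kilobase of exonic length (GENCODE 29), which depends on the transcripts that are annotated. On that scale HADH was highest, at 93.4 ± 3.90 CPM per kilobase over the 6 libraries (SD, n = 6), followed by ACADVL at 77.7 ± 5.93. HSD17B10 came next at 49.8 ± 8.11, then ACADM at 36.5 ± 3.99, whose range overlapped that of HSD17B10. HADHA at 25.2, ECHS1 at 25.0 and CPT1A at 24.2 CPM per kilobase did not differ beyond their spread. The HADHA level counts only reads assigned to HADHA itself, 62.0% to 67.6% of those of HADHA and its pseudogenes. Its place in this order, and its step from ACADM, therefore depend on how reads were split between the copies. HADHB has the same limit, at 58.7% to 66.2%. PPARA, with 10058 bases of exons, ranked 6 of 35 by reads and 24 of 35 per kilobase, at 5.96, just below PPARD at 6.72. Of the 34 pairs of neighbours in this order, 27 overlapped in their ranges over the libraries. Steps without overlap lay between HADH and ACADVL, ACADVL and HSD17B10, ACADM and HADHA, ACADS and ACADSB, PPARA and ETFB, ACOX3 and CROT, and CROT and ECI1. At the low end, CRAT stood at 1.01, ACAD11 at 0.499, CPT1C at 0.227 and ACADL at 0.129 CPM per kilobase.

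The library EV replicate 1 was the highest or the lowest of the 6 in 15 of the 31 genes tested, or 48.4%, against 56.2% of all genes tested. It was lowest in 10 of them and highest in 5. Its deviation from the mean of the other libraries ran from -0.84 in CRAT to 0.53 in CPT1B on the log2 scale. Over the 31 genes that deviation had a Spearman correlation of -0.44 with GC content, a description over genes that share the library. HADHB, with a GC content of 43.5%, lay on the high side, and CRAT and HSD17B10, with 62.3% and 57.6%, on the low side. SLC25A20, with 51.1%, also lay on the low side, at -0.53. CPT1B (57.4%) and ECI1 (61.4%), both of few reads, were high in that library. The part of GC content in the differences between the groups was not tested. The fit corrected for GC content and length called 0 of the 31 genes, as did the main fit, so that count cannot show it. In the corrected fit the sign turned in HSD17B10 and PPARD.

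**Figure D4:**
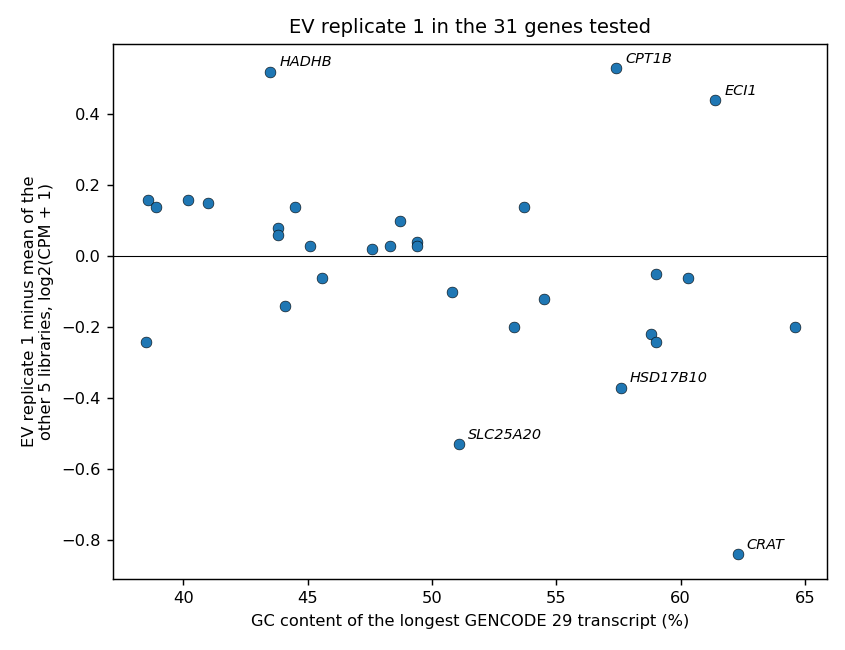
Difference between EV replicate 1 and the mean of the other 5 libraries, in log2(CPM + 1), against the GC content of the longest annotated transcript in percent, 1 point for each of the 31 genes tested. The deviations run from -0.84 (CRAT) to 0.53 (CPT1B), with a Spearman correlation of -0.44.

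A further 103 genes that feed, control or share parts of the pathway were read from 8 lists. Of these 78 were tested, 44 were higher and 34 lower in SCML4, 0 were called by limma-trend, and 2 of the 78 had an unadjusted p under 0.05, where all genes tested gave 5.27%. Their median difference was 0.02, against 0.01 over all genes, and in 6 of the 78 the groups did not overlap, where all genes tested gave 11.6%. Those with an unadjusted p under 0.05 were PRKAB1, a regulatory subunit of the kinase AMPK, which relieves the block of CPT1 by malonyl-CoA, and AMACR, a racemase of branched acyl-CoA. PRKAB1 stood at 126, 112 and 98.9 CPM in EV and 133, 133 and 142 CPM in SCML4, without overlap. Its difference was 0.28 with an interval of 0.08 to 0.48 (unadjusted p = 0.00932, adjusted p = 0.866, limma-trend), and 0.37 without EV replicate 1. AMACR had 16, 22 and 46 reads in EV against 44, 41 and 46 in SCML4, and its difference was 0.59 with all libraries and 0.34 without EV replicate 1, its lowest library.

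Over all genes tested 52.4% were higher in SCML4, the share beside which the counts of these lists stand. By list, the acyl-CoA synthetases, which make the substrate of CPT1, had 8 of 11 tested genes higher, none called. Their summed level, which was not tested, was 425 to 437 CPM in EV and 452 to 456 in SCML4. In that list ACSL6 stood at 19.3 ± 4.46 and 23.6 ± 1.09 CPM in EV and SCML4, and ACSS1, which activates acetate, at 148 ± 0.843 and 159 ± 4.90 CPM without overlap. For carnitine supply 3 of 4 were higher, with TMLHE and ALDH9A1 of carnitine synthesis at 0.23 and 0.17. For control by malonyl-CoA 7 of 10 were higher, with STK11, the kinase that activates AMPK, at 0.12. Of other peroxisomal genes 8 of 13 were higher, with SCP2, a thiolase and sterol carrier, lower at 110 ± 5.74 and 100 ± 3.11 CPM without overlap. No gene of these lists was called.

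Genes of propionyl-CoA and ketone bodies were higher in 4 of 9, with MMUT, the methylmalonyl-CoA mutase, at 40.7 ± 3.23 CPM in EV against 35.4 ± 1.50 in SCML4 without overlap and the ketone dehydrogenase BDH1 at 0.10. Other genes that serve the flavoprotein were higher in 6 of 9, with the FAD synthase FLAD1 at 0.15 and the mitochondrial folate and FAD carrier SLC25A32 at -0.33 from 7 to 18 reads. Partners and coregulators of the PPARs were higher in 5 of 16. Among these PPARGC1B, a relative of PPARGC1A, had 76.5, 87.6 and 91.4 CPM in EV and 82.9, 69.9 and 72.4 CPM in SCML4. The nuclear receptor coactivator NCOA1 had a difference of 0.13, without overlap. Of genes that PPARs are known to activate, 6 of 15 were tested and 3 were higher. UCP2 had a difference of 0.19, without overlap, and TXNIP one of -0.32 (-0.04 without EV replicate 1), in overlapping groups. PDK4, FABP4, CD36 and ACOT1 had 0 reads in every library. No gene of these lists was called either.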

How the data were processed

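The authors deposited a table of FPKM, reads scaled by a gene length and by library size, in which each library has a column, per the file headers. The submitters' processing notes name FastQC, STAR, SAMtools and hg19. RNA was extracted with TRIzol and libraries made with a SMARTer mRNA-seq kit, per the labels' protocols. The sources used here do not give the counting tool, its strand setting, the annotation or the gene lengths.

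Within a gene, FPKM rise in steps of 1 read, and whole reads were recovered for 100% of the 23897 genes above 0 (tolerance 0.002 of a read). Counts that all share a divisor would be recovered too low. Between 99.63% and 99.65% of each library's total lay on genes of the table. The lengths implied by the FPKM were not those of the genes (Spearman 0.01 with GENCODE 29 exonic lengths over 11463 genes), so CPM replaced FPKM in the main test and the FPKM fit was kept as an alternative. The main test was limma-trend (limma 3.58.1, R 4.3.3), two-sided, on log2(CPM + 1) without a replicate block, for genes averaging 10 reads or more, with Benjamini-Hochberg adjustment over all 14160 genes. A fold on the log2(CPM + 1) scale understates the change of low genes. A count of 0 allows 3 reads, for counting error only.

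Values in every library are given for the 10 members of smallest p, the CPT1 genes, the regulators and the top member of each role, and from each other list the 2 genes of smallest p are named. The pseudogenes, overlapping neighbours and the library values of SLC25A20, CRAT, HADHA, ACADL and the genes of other lists were chosen after values were seen. The members and lists were chosen with earlier results of these data known, and the motifs after the files had been read. In all 20 alternatives were run, among them limma-voom, other scalings, a replicate block, a lowess correction for GC content and length (span 0.3) and leaving out each library. The fit and the recovery of reads were tested on simulated data. Some overlaps of members with other genes are not reported here.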

Additional observations from a re-analysis of the deposited data

How the results depend on the processing

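None of the 31 genes tested was called under any of the 20 alternatives. Of 616 member differences under them, 576 kept the sign of the main fit and 40 had the opposite sign, in 14 members whose main difference was at most 0.16 in size. The other 17 members kept their sign in every alternative. The number of genes called over the whole table was 0 with log2(FPKM + 1), where SCML4 missed the threshold (1.88, adjusted p = 0.0619). It was 14 with library weights, 2 with median-of-ratios scaling, 3 with quantile normalization, 3 with correction for GC content and length, and 13 in limma-voom without EV replicate 1, which was added after the libraries were seen. Leaving out each library in turn gave 1 to 14 genes, the 14 without EV replicate 1 and 2 each without EV replicate 3 and without SCML4 replicate 1. The cause was not tested.

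The median of the members was 0.01 with the filter raised to a mean of 50 reads, -0.06 with library weights, -0.03 with quantile normalization, -0.03 with the GC correction and -0.05 in limma-voom without EV replicate 1. It ran from -0.05 to 0.04 when each library was left out. The sign turned with library weights in CPT2 (-0.01), SLC25A20 (-0.06), CRAT (-0.20) and HSD17B10 (-0.15), with quantile normalization in HSD17B10 (-0.0031) and DECR1 (-0.01), and with the GC correction in HSD17B10 (-0.08) and PPARD (-0.03). In limma-voom without EV replicate 1 it turned in CPT2 (-0.05), SLC25A20 (-0.11), CRAT (-0.21), HADHB (0.01), HSD17B10 (-0.14), PPARD (-0.05) and STK11 (-0.03). Leaving out each library gave -0.0031 to 0.09 in CPT1A, -0.04 to 0.16 in CPT2, -0.11 to 0.30 in SLC25A20, -0.15 to 0.35 in CRAT, -0.13 to 0.05 in ACADS and -0.10 to 0.04 in ACAD9. It gave -0.29 to 0.01 in HADHB, -0.08 to 0.05 in ECHS1, -0.14 to 0.12 in HSD17B10, -0.08 to 0.06 in DECR1, -0.10 to 0.02 in DECR2, -0.04 to 0.13 in HSD17B4, -0.13 to 0.03 in PPARA, -0.05 to 0.14 in PPARD and -0.02 to 0.22 in STK11. The cause was not tested.

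Replicate numbers are shared by the labels, which do not say that a number marks a shared batch, so the numbers were not taken as pairs. Same-numbered libraries had deviations correlated at -0.06, -0.11 and -0.05 over 14160 genes, and differently numbered ones at -0.07 to 0.14. These correlations cannot decide whether pairs exist, because the deviations of a group sum to 0 in each gene. With the replicate block 2 genes were called, none of them a member, and the smallest member p was 0.0919. With 3 libraries per group, genes of few reads such as CRAT, CPT1B and ECI1 could not be measured closely, and CPT1C and ACADL lay under the filter of the main test.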
